A study of Homo sapiens with 12 samples.

Results

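The genes described here are 10 factors of the epithelial to mesenchymal transition (EMT), out of 58302 genes counted in 2 human prostate cancer cell lines. They were chosen by Ensembl ID, not by their values: the transcription factors TWIST1, TWIST2, SNAI1, SNAI2, ZEB1, ZEB2 and PRRX1, and the effectors VIM, CDH2 and FN1. All 10 passed a filter on low counts that kept 23238 genes. TWIST2 did so through the PC3 libraries labelled ETV4WT, where it was high, and ZEB2 through PC3 libraries alone, where it was high. PC3 was derived from a metastasis to bone, and 22Rv1 comes from the CWR22 xenograft and keeps androgen receptor and luminal prostate genes. Both lines were infected with an MSCV-IRES-GFP vector, packaged as lentivirus, that carried the IRES-eGFP cassette alone (eGFP), wild-type ETV4 ahead of it (ETV4WT) or mutated ETV4 ahead of it (ETV4AAA). ETV4 is an ETS transcription factor of the PEA3 group, and the labels do not state which residues were changed in ETV4AAA. Live eGFP-positive cells were sorted 1 week after infection, and polyadenylated RNA was sequenced. All 6 groups, including the controls, therefore hold infected and sorted cells, with n = 2 libraries each. The labels do not say whether the 2 libraries of a group come from separate cultures. All p-values thus rest on a spread between libraries that may be technical.

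In EMT, epithelial cells loosen their junctions and take on traits of migrating mesenchymal cells. The basic helix-loop-helix proteins TWIST1 and TWIST2, the zinc finger repressors SNAI1 (SNAIL) and SNAI2 (SLUG), the zinc finger and homeodomain proteins ZEB1 and ZEB2, and the paired homeobox protein PRRX1 act as its transcription factors. SNAIL and ZEB proteins bind E-boxes and repress epithelial genes such as CDH1, which encodes E-cadherin. The ZEB factors and microRNAs of the miR-200 family repress each other. The effectors are vimentin (VIM), an intermediate filament protein, N-cadherin (CDH2), a junction protein typical of mesenchymal and neural cells, and fibronectin (FN1), a matrix glycoprotein. In prostate tumours these genes are studied as marks of invasive behaviour.

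To set the RNA values beside the DNA they come from, windows of 300 bases, from 250 before to 50 after a start site, were taken from RefSeq on GRCh38.p14. These cover 7 of the 10 genes in 14 windows, and TWIST1, SNAI1 and SNAI2 are not among them. Each window was searched on both strands for the ETS motifs AGGAAG and CGGAAG, and for CAGGTG, the E-box of SNAIL and ZEB factors. Neither ETS motif was taken to tell PEA3 factors from other ETS factors. Over 35116 windows of this length, 33.6% hold AGGAAG, 19.5% hold CGGAAG and 20.6% hold CAGGTG. Below are the windows of TWIST2, which was highest in the PC3 libraries labelled ETV4WT, of ZEB1 at the start site with the most E-boxes among its 7, and of FN1, which was raised by both constructs in 22Rv1. Capitals mark matches, on either strand.
TWIST2, chr2:238847835-238848134, plus strand: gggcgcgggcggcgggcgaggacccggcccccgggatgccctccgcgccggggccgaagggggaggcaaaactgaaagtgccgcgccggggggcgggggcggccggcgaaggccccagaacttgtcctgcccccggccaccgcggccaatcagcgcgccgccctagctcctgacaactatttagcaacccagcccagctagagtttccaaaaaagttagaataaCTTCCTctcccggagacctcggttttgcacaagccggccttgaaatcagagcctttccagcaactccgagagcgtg
ZEB1, chr10:31318966-31319265, plus strand: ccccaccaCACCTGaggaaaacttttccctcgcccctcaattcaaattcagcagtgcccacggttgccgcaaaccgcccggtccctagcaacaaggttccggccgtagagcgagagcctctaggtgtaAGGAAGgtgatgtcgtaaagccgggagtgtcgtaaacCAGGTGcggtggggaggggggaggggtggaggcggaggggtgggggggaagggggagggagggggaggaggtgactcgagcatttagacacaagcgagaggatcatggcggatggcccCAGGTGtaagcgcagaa
FN1, chr2:215436019-215436318, minus strand: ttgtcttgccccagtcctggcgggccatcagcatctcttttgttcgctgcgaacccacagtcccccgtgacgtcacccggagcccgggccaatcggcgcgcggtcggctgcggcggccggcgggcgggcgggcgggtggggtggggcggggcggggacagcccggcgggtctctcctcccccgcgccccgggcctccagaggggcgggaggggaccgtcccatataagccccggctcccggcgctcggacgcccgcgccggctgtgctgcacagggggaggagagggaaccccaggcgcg
The TWIST2 window holds 1 AGGAAG on the minus strand, 26 bases before the start site. The ZEB1 window, picked for its E-boxes, holds 1 AGGAAG and 3 CAGGTG, and none of these matches overlaps another motif. Of the other ZEB1 windows, that starting at base 31318167 holds 2 AGGAAG and 1 CAGGTG. The window starting at 31318568 holds 1 AGGAAG, and that at 31319518 holds 1 CGGAAG. The remaining ZEB1 windows hold none of the 3 motifs. The windows of FN1, VIM and ZEB2 hold none of the 3 motifs, PRRX1 holds 2 AGGAAG and 1 CGGAAG, and CDH2 holds 1 AGGAAG in 1 of its 2 windows. A match describes letters, and no binding was measured.

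The ZEB factors are also known targets of the miR-200 family, whose mature sequences are shown with the seed in capitals, because the host gene of miR-200c and miR-141 is described beside the ZEB genes. The first pair is encoded in that host gene on chromosome 12.
hsa-miR-200c-3p: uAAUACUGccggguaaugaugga
hsa-miR-141-3p: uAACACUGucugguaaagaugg
hsa-miR-200b-3p: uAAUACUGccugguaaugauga
Of the family, miR-200b and miR-429 share the seed AAUACUG with miR-200c, and miR-200a shares AACACUG with miR-141. In the longest annotated 3′ UTR of ZEB1 (GENCODE 29, chromosome 10), the complement of AAUACUG occurs 6 times, and that of AACACUG 3 times. Among the 3′ UTRs of 19111 protein-coding genes, 16.0% hold the first and 18.4% hold the second at least 1 time. ZEB2 holds 5 and 4, FN1 holds 2 and 0, SNAI2 holds 1 and 0, and the other 6 genes hold 0 of either. Some of these stretches are given by their bases within the UTR, with the match in capitals.
ZEB1, bases 355 to 376: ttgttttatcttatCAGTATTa
ZEB1, bases 768 to 789: aaaatcatcagaatCAGTGTTt
ZEB2, bases 378 to 399: gcactaccatacatCAGTATTt

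The libraries hold 41698738 to 51199207 counts. Levels are in CPM, counts scaled to a common library size after TMM adjustment, given for replicate 1 and replicate 2 in that order, and log2 changes are given ± SE. A gene passed at an adjusted p under 0.05, by edgeR's quasi-likelihood test with Benjamini-Hochberg adjustment over all 23238 genes. ETV4 itself stood at 31.2 and 24.9 CPM in 22Rv1 with eGFP, at 385 and 484 with ETV4WT and at 390 and 281 with ETV4AAA. In PC3 it stood at 116 and 126 CPM with eGFP, at 215 and 112 in the libraries labelled ETV4WT, and at 223 and 109 in those labelled ETV4AAA. Replicate 2 of both PC3 constructs thus lay below both eGFP libraries for ETV4, against its label. Each PC3 result below is therefore tied to labels that 1 of the 2 libraries of each construct does not bear out for this gene.

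**Figure D1:**
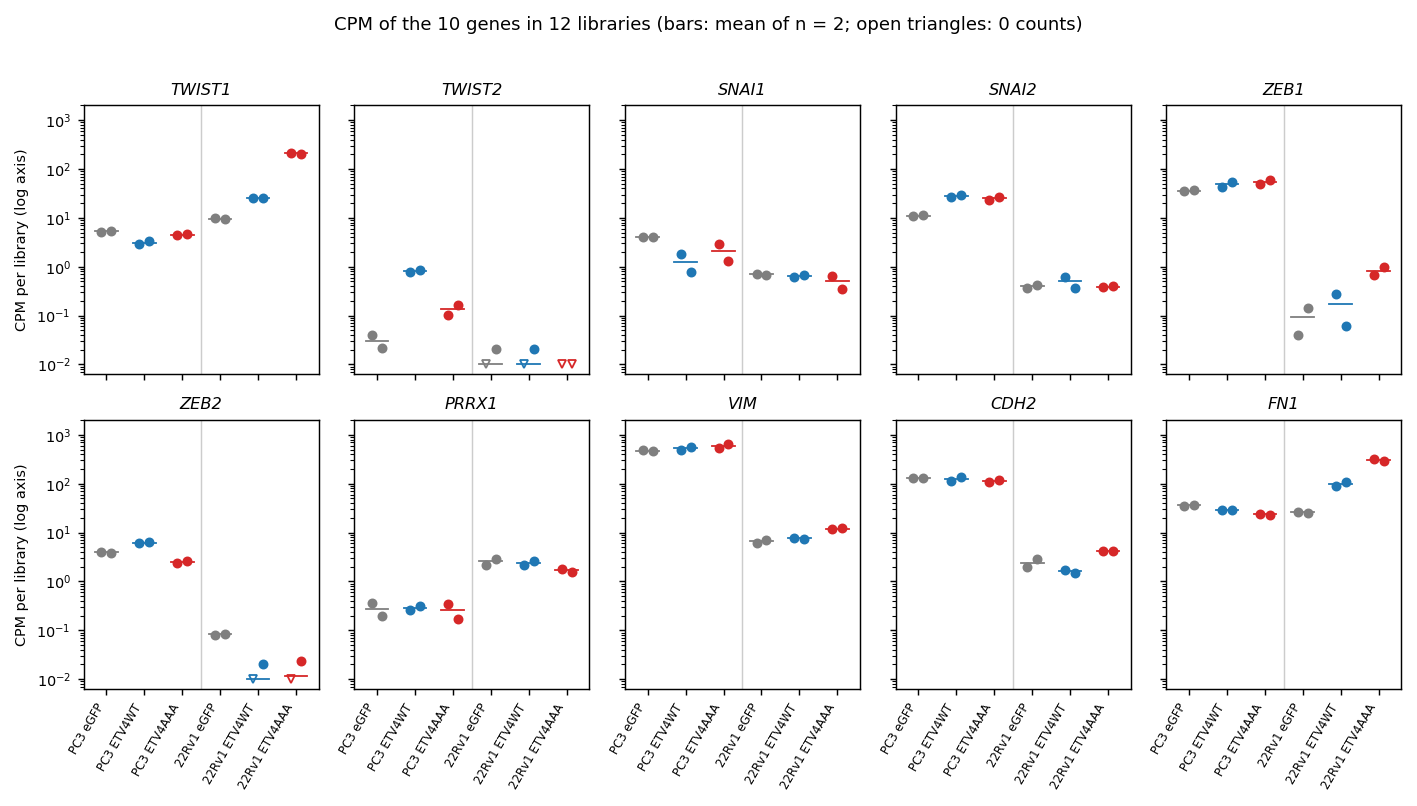
CPM of each gene (log axis) in the 12 libraries, with grey for eGFP, blue for ETV4WT and red for ETV4AAA, bars for the mean of 2 libraries and open triangles at the foot for 0 counts. TWIST1 and FN1 step up from eGFP to ETV4WT to ETV4AAA in 22Rv1, while ZEB1, VIM and CDH2 stay far below their PC3 levels in all 22Rv1 groups.

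Before any ETV4 construct, the lines differed in most of these genes. Between the eGFP controls 9 of the 10 passed, 2 higher and 7 lower in 22Rv1, where 70.9% of all genes tested passed, 34.9% higher and 36.0% lower. ZEB1 stood at 35.7 and 36.8 CPM in PC3 and at 0.0410 and 0.144 CPM in 22Rv1, the latter from 9 counts over both libraries. That is a log2 difference of -8.57 ± 0.45 (adjusted p = 6.22e-09). VIM was 481 and 473 CPM in PC3 against 6.24 and 7.23 in 22Rv1 (log2 -6.15 ± 0.16), and CDH2 130 and 128 against 1.95 and 2.92 (log2 -5.73 ± 0.20). ZEB2 (-5.53 ± 0.32), SNAI2 (-4.79 ± 0.24) and SNAI1 (-2.52 ± 0.42) were also lower in 22Rv1. Because ZEB2 met the low-count filter through PC3 alone, its place among the 9 is a description. The order was the reverse for PRRX1 and TWIST1. PRRX1 was 0.362 and 0.193 CPM in PC3 and 2.22 and 2.92 in 22Rv1 (log2 3.19 ± 0.32, adjusted p = 2.55e-06). TWIST1 was 5.25 and 5.39 CPM in PC3 and 10.1 and 9.33 in 22Rv1 (log2 0.87 ± 0.13, adjusted p = 6.18e-05). FN1 differed little, at 35.3 and 36.5 against 26.5 and 25.3 CPM (log2 -0.47 ± 0.13, adjusted p = 0.00645), and with upper-quartile scaling it did not pass (-0.13, adjusted p = 0.399). TWIST2 held 3 counts in PC3 and 1 in 22Rv1. Both are at or under a floor of 3 counts over a group, and no fold is given.

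Levels of different genes were set side by side per kilobase of exon, counting each exonic base of a gene 1 time over all its annotated transcripts, which lowers the value of genes with long alternative exons such as ZEB2. On that scale PC3 eGFP cells ranked VIM first (92.5 CPM per kb), then CDH2 (26.2), ZEB1 (4.19), SNAI2 (3.29), TWIST1 (2.62), SNAI1 (2.38), FN1 (2.07), ZEB2 (0.157), PRRX1 (0.0337) and TWIST2 (0.0164). No 2 neighbours in this order overlapped between libraries. In 22Rv1 eGFP cells TWIST1 came first (4.77 CPM per kb), then FN1 (1.50), VIM (1.30), CDH2 (0.492), SNAI1 (0.414), PRRX1 (0.312), SNAI2 (0.118) and ZEB1 (0.0107), with TWIST2 and ZEB2 below. There CDH2 and SNAI1 overlapped, as did ZEB1, TWIST2 and ZEB2, while the other neighbours did not. With ETV4AAA in 22Rv1 TWIST1 reached 103 CPM per kb and FN1 17.8, against 2.34 for VIM and 0.845 for CDH2.

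TWIST1, which controls mesoderm and cranial suture formation, went in opposite directions in the lines. In 22Rv1 it was 10.1 and 9.33 CPM with eGFP, 25.2 and 25.3 with ETV4WT and 212 and 207 with ETV4AAA. The 3 groups did not overlap. It rose by log2 1.38 ± 0.12 with ETV4WT (adjusted p = 9.95e-05) and by 4.43 ± 0.14 with ETV4AAA (adjusted p = 1.01e-09), and ETV4AAA lay above ETV4WT by 3.05 ± 0.13 (adjusted p = 1.65e-08). In PC3 it was 5.25 and 5.39 CPM with eGFP, 2.88 and 3.34 in libraries labelled ETV4WT, and 4.46 and 4.66 in those labelled ETV4AAA. It fell by 0.78 ± 0.13 on the log2 scale in the ETV4WT libraries (adjusted p = 0.00128). The difference of -0.22 ± 0.13 with ETV4AAA did not pass (adjusted p = 0.406). The gap of 0.55 ± 0.13 between the PC3 constructs passed (adjusted p = 0.0185) but not with only the PC3 libraries (0.105), without ETV4WT replicate 1 (0.109), without ETV4AAA replicate 1 (0.065) or replicate 2 (0.0924), without replicate 2 of both constructs (0.120), with upper-quartile scaling (0.0874) or with no low-count filter (0.137), all adjusted p.

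TWIST2, its close relative in skin and mesoderm, was near absent except in 1 group. PC3 held 2 and 1 counts with eGFP, 42 and 43 in the libraries labelled ETV4WT (0.780 and 0.864 CPM), and 5 and 7 in those labelled ETV4AAA (0.103 and 0.167 CPM). The pooled counts with ETV4WT were 26.3 times those with eGFP (95% interval 8.71 to 130 from counting error alone). ETV4AAA lay below ETV4WT by log2 -2.60 ± 0.44. Because these ETV4WT libraries alone took TWIST2 past the low-count filter, both values are given as descriptions with no test. The ratio of ETV4AAA to eGFP of 4.25 (1.15 to 23.5) did not pass (adjusted p = 0.24). In 22Rv1 the 3 groups held 1, 1 and 0 counts, so no change was detectable at this depth. Even at its highest, TWIST2 stayed under 1 CPM.

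The SNAIL pair parted in PC3. SNAI2, a factor of neural crest and basal epithelial cells, was 10.7 and 11.6 CPM with eGFP, 26.4 and 29.7 in libraries labelled ETV4WT and 23.8 and 26.8 in those labelled ETV4AAA. Both constructs lay above eGFP in both libraries and overlapped each other. The rises were log2 1.33 ± 0.18 (adjusted p = 0.000261) and 1.18 ± 0.18 (adjusted p = 0.00323), and the difference between the constructs did not pass (-0.15 ± 0.18, adjusted p = 0.685). With 1 eGFP library left out the ETV4AAA rise no longer passed (adjusted p = 0.0739 without replicate 1 and 0.0509 without replicate 2). In 22Rv1 SNAI2 stayed between 0.367 and 0.631 CPM in all 6 libraries, and no contrast passed.

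SNAI1, the early-acting repressor of CDH1, was 4.05 and 3.98 CPM in PC3 with eGFP, 1.78 and 0.764 in libraries labelled ETV4WT and 2.94 and 1.29 in those labelled ETV4AAA. All 4 construct libraries lay below both controls, and replicate 2 lay below replicate 1 in both constructs. It fell by 1.64 ± 0.39 on the log2 scale with ETV4WT (adjusted p = 0.00936), but not past the threshold without ETV4WT replicate 2 (-1.16, adjusted p = 0.0737) or with the PC3 libraries alone (-1.59, adjusted p = 0.0565). With ETV4AAA the difference of -0.91 ± 0.37 did not pass (adjusted p = 0.254), though it did without ETV4AAA replicate 1 (-1.63, adjusted p = 0.0323) and with no low-count filter (-0.87, adjusted p = 0.00834). ETV4 CPM was also lower in replicate 2 of these constructs, as given above, and its part in the SNAI1 values was not tested. In 22Rv1 SNAI1 was 0.356 to 0.718 CPM over the 6 libraries, with no contrast past the threshold.

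ZEB1, a repressor of CDH1 and of epithelial polarity genes, was 35.7 and 36.8 CPM in PC3 with eGFP, 43.7 and 54.8 in libraries labelled ETV4WT and 48.5 and 59.3 in those labelled ETV4AAA. The construct libraries lay above the controls, but neither difference passed (log2 0.44 ± 0.27, adjusted p = 0.258, and 0.57 ± 0.27, adjusted p = 0.32). With no low-count filter both passed (0.54, adjusted p = 0.0344, and 0.61, adjusted p = 0.0355). In 22Rv1 ZEB1 held 2 and 7 counts with eGFP, 13 and 3 with ETV4WT and 30 and 42 with ETV4AAA. The ETV4AAA libraries, at 0.666 and 0.997 CPM, lay above the other 4. The rise over eGFP was log2 3.13 ± 0.54 (adjusted p = 0.000877) and over ETV4WT 2.27 ± 0.48 (adjusted p = 0.00472). Its level there was 0.831 ± 0.234 CPM (SD, n = 2), against 36.3 ± 0.809 in PC3 with eGFP. The antisense gene ZEB1-AS1, next to ZEB1, stood at 5.27 to 7.69 CPM in 22Rv1. In PC3 it was higher in libraries labelled ETV4WT than with eGFP (log2 1.18 ± 0.17, adjusted p = 0.000462), where ZEB1 did not pass. With the strand setting not known, reads from any bases that the pair share cannot be told apart.

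ZEB2, which shares its E-box targets with ZEB1, differed between the PC3 constructs. It was 3.99 and 3.87 CPM with eGFP, 6.0 and 6.53 in libraries labelled ETV4WT and 2.38 and 2.63 in those labelled ETV4AAA, with no overlap between groups. It rose by log2 0.67 ± 0.19 with ETV4WT (adjusted p = 0.0235), while the value of -0.65 ± 0.20 with ETV4AAA did not pass (adjusted p = 0.117). The constructs differed by -1.32 ± 0.20 (adjusted p = 0.00095). The ETV4WT rise was lost without eGFP replicate 1 (adjusted p = 0.117), eGFP replicate 2 (0.153) or ETV4WT replicate 2 (0.106), and without replicate 2 of both constructs (0.0505). In 22Rv1 ZEB2 held 8 counts with eGFP and 1 count with each construct. The ratio of eGFP to ETV4WT was 7.80 (95% interval 1.05 to 346, counting error alone) and that to ETV4AAA 7.17 (0.961 to 318). Neither contrast passed in edgeR's test. The ETV4AAA difference did in limma-voom (log2 -2.23, adjusted p = 0.0224), on 8 and 1 counts. Because ZEB2 met the low-count filter through PC3 alone, that value is not read as a change.

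The host gene of miR-200c and miR-141, MIR200CHG, was looked up after its values had been seen. It held 0 counts in all 6 PC3 libraries and 570, 834 and 646 counts in 22Rv1 with eGFP, ETV4WT and ETV4AAA. Against a floor of 3 counts over a group, 22Rv1 was at least 188-, 303- and 223-fold higher. Within 22Rv1 its CPM of 5.46 to 9.95 passed in no contrast. Mature microRNAs were not measured. CDH1 stood at 14.8 and 14.5 CPM in PC3 with eGFP and 344 and 345 CPM in 22Rv1 (log2 4.55 ± 0.13, adjusted p = 7.73e-11), and GRHL2, a guard of epithelial identity, at 0.238 against 78.2 CPM (8.34 ± 0.26, adjusted p = 1.32e-10). With ETV4AAA in 22Rv1, where ZEB1 rose, CDH1 was 341 and 315 CPM and did not pass (log2 -0.07 ± 0.11, adjusted p = 0.689). In PC3 it was 9.90 and 10.1 CPM in libraries labelled ETV4WT and 6.21 and 6.53 in those labelled ETV4AAA, a fall of 1.20 ± 0.12 on the log2 scale for the latter (adjusted p = 0.000258).

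**Figure D2:**
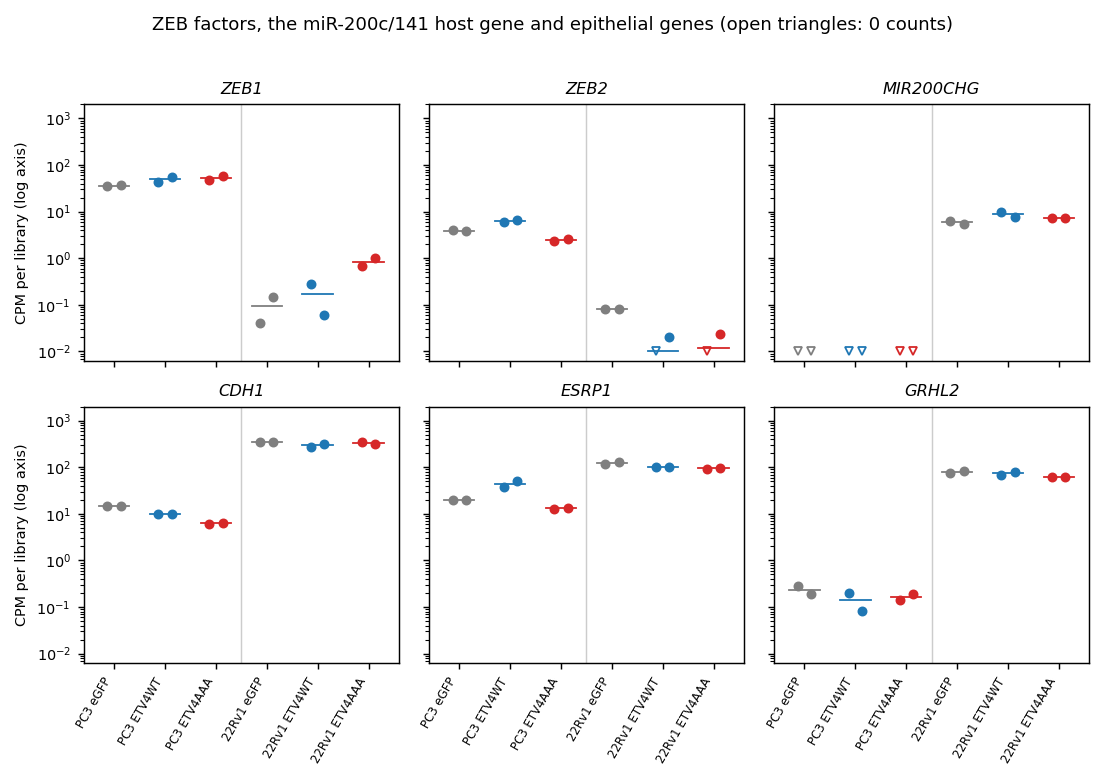
CPM (log axis) of ZEB1, ZEB2, the microRNA host gene MIR200CHG and the epithelial genes CDH1, ESRP1 and GRHL2 in the 12 libraries, with bars for group means and open triangles for 0 counts. The ZEB genes are higher in PC3 than in 22Rv1, and MIR200CHG, with 0 counts in PC3, and the 3 epithelial genes are higher in 22Rv1. The split is not clean, since ESRP1 stands at 12.9 to 50.3 CPM in PC3, above ZEB2 there (2.38 to 6.53 CPM).

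PRRX1, a homeobox factor of limb and craniofacial mesenchyme, did not pass in any within-line contrast. It stayed between 0.167 and 0.362 CPM in PC3. In 22Rv1 it was 2.22 and 2.92 CPM with eGFP, 2.20 and 2.57 with ETV4WT and 1.82 and 1.57 with ETV4AAA. The ETV4AAA libraries lay below the other 4, but the difference from eGFP of -0.60 ± 0.26 did not pass (adjusted p = 0.0976).

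FN1 followed TWIST1 in 22Rv1 in rank of groups. It was 26.5 and 25.3 CPM with eGFP, 88.6 and 111 with ETV4WT and 329 and 287 with ETV4AAA, with no overlap. The rises over eGFP were log2 1.94 ± 0.13 (adjusted p = 1.46e-05) and 3.57 ± 0.14 (adjusted p = 6.29e-09), and ETV4AAA exceeded ETV4WT by 1.63 ± 0.13 (adjusted p = 2.45e-06). In PC3 the order was the other way, at 35.3 and 36.5 CPM with eGFP, 29.5 and 28.9 in libraries labelled ETV4WT and 24.5 and 23.3 in those labelled ETV4AAA. The groups did not overlap, the ETV4WT difference of -0.30 ± 0.13 did not pass (adjusted p = 0.119), and the ETV4AAA fall of 0.59 ± 0.13 did (adjusted p = 0.0287). That fall no longer passed without eGFP replicate 1 (adjusted p = 0.194), eGFP replicate 2 (0.26) or ETV4AAA replicate 2 (0.174), without replicate 2 of both constructs (0.102), with the PC3 libraries alone (0.102) or with DESeq2 size factors (0.0505). The fibronectin level of 22Rv1 with ETV4AAA, 307.6 ± 29.8 CPM (SD, n = 2), was above every PC3 library.

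VIM and CDH2 moved little beside that. In 22Rv1 VIM was 6.24 and 7.23 CPM with eGFP, 7.75 and 7.41 with ETV4WT and 11.6 and 12.5 with ETV4AAA. It rose by log2 0.84 ± 0.13 over eGFP with ETV4AAA (adjusted p = 0.000495), and the ETV4WT difference of 0.17 ± 0.14 did not pass (adjusted p = 0.618). In PC3 it was 481 and 473, 495 and 577, and 545 and 640 CPM with eGFP, ETV4WT and ETV4AAA, with no contrast past the threshold. CDH2 in 22Rv1 was 1.95 and 2.92 CPM with eGFP, 1.72 and 1.51 with ETV4WT and 4.24 and 4.13 with ETV4AAA. It rose by log2 0.78 ± 0.18 over eGFP with ETV4AAA (adjusted p = 0.00661), or by 0.49 without eGFP replicate 1 (adjusted p = 0.0538). ETV4AAA exceeded ETV4WT by 1.37 ± 0.19 (adjusted p = 0.000241), and the ETV4WT value of -0.59 ± 0.20 against eGFP did not pass (adjusted p = 0.19). In PC3 CDH2 ranged over 110 to 134 CPM and passed in no within-line contrast. VIM-AS1, antisense to VIM, stood at 0.710 to 6.01 CPM over all libraries. In PC3 it was higher in libraries labelled ETV4WT than with eGFP (log2 1.35 ± 0.24, adjusted p = 0.00167), where VIM did not pass. Reads from any bases that it shares with VIM cannot be told apart either.

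**Figure D3:**
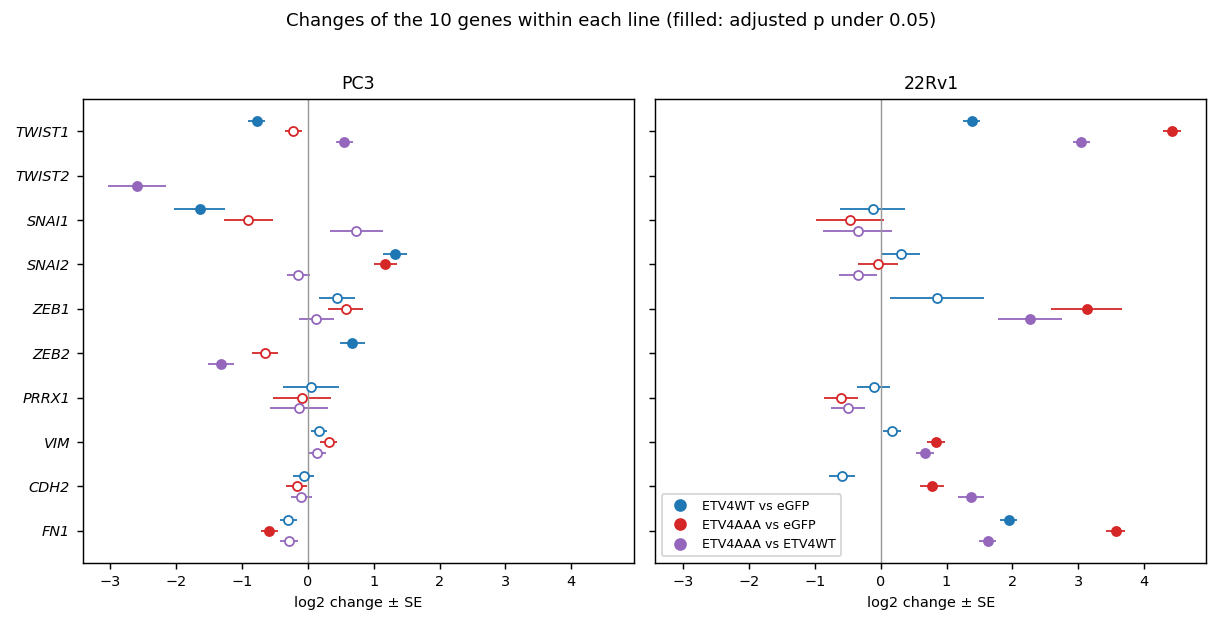
Log2 changes ± SE of the 10 genes in the 3 contrasts of each line, filled where the adjusted p was under 0.05, leaving out contrasts in which a group held 3 counts or fewer (TWIST2 against eGFP and in 22Rv1, ZEB2 in 22Rv1). The TWIST2 point is a description, since that gene met the low-count filter through its high group. In 22Rv1 all filled points lie to the right of 0, and in PC3 they lie on both sides.

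Counted by contrast, and leaving TWIST2 aside, the PC3 libraries labelled ETV4WT had 2 of the other 9 genes higher than eGFP (SNAI2, ZEB2) and 2 lower (TWIST1, SNAI1), where 23.4% of all genes tested passed, 12.7% higher and 10.7% lower. In those labelled ETV4AAA 1 was higher (SNAI2) and 1 lower (FN1), with 3.69% of all genes passing, 2.45% higher and 1.24% lower. Between the PC3 constructs TWIST1 was higher and ZEB2 lower with ETV4AAA, with 11.0% of genes passing, 3.65% higher and 7.32% lower. Without replicate 2 of both PC3 constructs the counts of passing genes were 3, 1 and 1 in these contrasts. In 22Rv1 ETV4WT raised 2 genes (TWIST1, FN1), where 1.50% of all genes passed, 1.06% higher and 0.439% lower. ETV4AAA raised 5 over eGFP (TWIST1, ZEB1, FN1, VIM, CDH2) and lowered 0, where 31.8% passed, 17.4% higher and 14.4% lower. The same 5 were higher with ETV4AAA than with ETV4WT, where 23.5% of genes passed, 13.9% higher and 9.62% lower. Contrasts within a line share their eGFP or construct libraries, so these counts are not independent of each other. The median log2 change of the 10 genes, TWIST2 included, was 0.11 and -0.13 in PC3 and 0.10 and 0.37 in 22Rv1, for ETV4WT and ETV4AAA against eGFP, and that of all genes was 0.00, 0.00, 0.01 and 0.00.

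The effect of a construct was compared between the lines by interaction contrasts, in which 12.5% of all genes passed for ETV4WT (4.92% higher in 22Rv1, 7.57% lower) and 16.2% for ETV4AAA (9.48% higher, 6.73% lower). For ETV4WT 3 of the 10 passed: TWIST1 and FN1 moved higher in 22Rv1 than in PC3, by log2 2.16 ± 0.18 (adjusted p = 2.73e-05) and 2.24 ± 0.19 (adjusted p = 2.56e-05), and ZEB2 moved lower. ZEB2 met the low-count filter through PC3 alone, whose groups enter this contrast, so its place among the 3 is a description. For ETV4AAA 5 passed. TWIST1 differed by 4.65 ± 0.18 (adjusted p = 2.03e-08), FN1 by 4.16 ± 0.19 (adjusted p = 6.41e-08), ZEB1 by 2.56 ± 0.62 (adjusted p = 0.0147), CDH2 by 0.95 ± 0.24 (adjusted p = 0.0193) and SNAI2 by -1.22 ± 0.35 (adjusted p = 0.0333). The ETV4AAA count was 3 without any of 5 single libraries (PC3 eGFP replicate 1 or 2, 22Rv1 eGFP replicate 1, 22Rv1 ETV4AAA replicate 1 or 2). VIM had a difference of 0.53 ± 0.18 that did not pass (adjusted p = 0.0726), but it passed without PC3 ETV4AAA replicate 2 (0.65, adjusted p = 0.0394) and without replicate 2 of both PC3 constructs (0.67, adjusted p = 0.0199). For ETV4WT SNAI1, SNAI2, CDH2 and TWIST2 did not pass. By edgeR's test with no low-count filter SNAI1 and SNAI2 did (adjusted p = 0.0065 and 0.0499). SNAI2 also passed with upper-quartile scaling (-1.21, adjusted p = 0.0481) and with a floor of 1 CPM (-1.14, adjusted p = 0.0435). SNAI1 also passed with a replicate block (1.64, adjusted p = 0.0459). The CDH2 difference was -0.53 in the main fit and -0.80 without 22Rv1 eGFP replicate 1. TWIST2 met the low-count filter through its high group, which enters this contrast, so no test of it is read here.

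The lists of neighbouring genes were then read in the same fit, beginning with 22Rv1 cells carrying ETV4AAA against eGFP, where 17.4% of all genes were higher and 14.4% lower. Of 10 tested other EMT-linked transcription factors, 6 rose and 0 fell. SOX9, a factor of cartilage and of prostate progenitors, rose from 32.4 to 376 CPM (log2 3.54 ± 0.15), FOXC1, a forkhead factor of mesenchyme, from 0.401 to 2.53 CPM (2.65 ± 0.22) and HMGA2, a chromatin protein of the embryo, from 6.39 to 13.3 CPM (1.05 ± 0.14). Of the 7 E proteins and ID inhibitors, which pair with TWIST proteins or block that pairing, 3 rose and 0 fell. The E protein gene TCF4 rose from 13.3 to 51.7 CPM (1.96 ± 0.14), and the inhibitor genes ID2 and ID3 rose too (1.15 ± 0.13 and 1.05 ± 0.29), ID3 not past the threshold without eGFP replicate 2 (adjusted p = 0.175), ETV4AAA replicate 1 (0.121) or ETV4AAA replicate 2 (0.0593). Of 10 corepressors of SNAIL and ZEB factors 0 rose and 2 fell, EZH2, the histone H3 methyltransferase of Polycomb (-1.15 ± 0.13), and AJUBA, an adaptor of SNAIL (-0.66 ± 0.13). Of 14 TGF-beta inputs 6 rose and 2 fell. The receptor genes TGFBR2 (2.31 to 23.3 CPM, log2 3.33 ± 0.18) and TGFBR3 (2.26 ± 0.16) and the SMAD corepressor gene TGIF1 (1.87 ± 0.12) were among those that rose. Each adjusted p for a gene named here as changed was at most 0.0161.

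Of 23 other mesenchymal effectors 15 rose and 1 fell in that comparison, with a median log2 change of 1.35 against 0.00 for all genes. SPARC, a collagen-binding matrix protein, held 1 count with eGFP, 6402 with ETV4WT and 194293 with ETV4AAA. Its pooled ratio to eGFP was 6564 with ETV4WT (1178 to 259312, counting error alone), and its mean level with ETV4AAA was 2228 CPM. FBN1, the fibrillin gene, rose from 1.14 to 44.8 CPM (log2 5.29 ± 0.18, adjusted p = 2.37e-09), and MSN, which links actin to the membrane, from 3.87 to 58.4 CPM (3.91 ± 0.14, adjusted p = 2.69e-09). Among 14 partners of fibronectin, N-cadherin and vimentin 8 rose and 1 fell. These include ITGA4, a fibronectin receptor subunit (3.81 ± 0.29), ITGB3, a subunit that pairs with the alpha v integrin (4.44 ± 0.40), and SYNM, which forms filaments with vimentin (2.67 ± 0.19). Of 22 epithelial targets and guards 4 rose and 4 fell, a share near the 31.8% of all genes that passed. GRHL3, an epidermal factor, rose from 0.206 to 10.2 CPM (5.62 ± 0.37) and RAB25, a vesicle GTPase of epithelia, from 0.421 to 1.96 CPM (2.21 ± 0.32), while OCLN, a tight junction gene, fell (-0.78 ± 0.16). The epithelial count of 8 dropped to 5 without eGFP replicate 1 and to 4 without eGFP replicate 2 or either ETV4AAA library.

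Markers of other cells were read beside these rises. The summed CPM of 8 fibroblast and stromal markers was 8.46 to 9.50 in 22Rv1 with eGFP, 8.51 to 10.1 with ETV4WT and 10.6 to 13.1 with ETV4AAA, against 348 to 428 over the PC3 groups. The 6 endothelial markers summed to 0.206 to 0.390 with eGFP and 5.24 to 5.84 with ETV4AAA. Of the 4 tested 2 were higher and 0 lower, with a median log2 change of 4.48, where 17.4% of all genes were higher. With ETV4AAA KDR held 402 counts and PECAM1 60, both 0 with eGFP, and CDH5 and VWF held 3 and 4. Of the 6 markers 5 were under 1 CPM in both ETV4AAA libraries. The 6 leukocyte markers summed to at most 0.475 CPM with ETV4AAA. The 8 luminal markers summed to 2537 to 2581 CPM with eGFP and 1792 to 1912 with ETV4AAA, 1 higher and 5 lower. That count of 6 fell to 3 without eGFP replicate 1 or either ETV4AAA library, and to 4 without eGFP replicate 2. The 5 PC3 markers summed to 336 to 394 CPM with eGFP and 633 to 654 with ETV4AAA, 4 higher. They include CD44, which is on the mesenchymal effector list too. CDH11, of the mesenchymal effector list, was looked at after its values were seen. It stood at 229 to 340 CPM in every PC3 library and at 0 counts in both 22Rv1 ETV4AAA libraries. A gene chosen in that way is no check on the 5 fixed PC3 markers, whose part in these rises was not tested. Fewer cells with a transcript and less of it in each cell cannot be told apart in bulk RNA.

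With ETV4WT in 22Rv1 the lists were read beside the 1.50% of all genes that passed. Of 10 other EMT-linked factors 1 rose, SOX9 (32.4 to 72.4 CPM, log2 1.16 ± 0.14, adjusted p = 0.00119), and 0 of 7 E proteins and ID inhibitors passed. Of 10 corepressors 1 fell, AJUBA (-0.68 ± 0.13, adjusted p = 0.0261), lost without either eGFP library (0.114 and 0.148) or ETV4WT replicate 1 (0.216). Of 14 TGF-beta inputs 1 fell, the signal transducer gene SMAD3 (-0.57 ± 0.13, adjusted p = 0.0486), lost without any 1 of the 4 libraries (0.0559 to 0.376). Of 23 mesenchymal effectors 3 rose and 1 fell. The hyaluronan receptor gene CD44 rose from 124 to 252 CPM (1.02 ± 0.11, adjusted p = 0.000564), and ACTA2, smooth muscle actin, from 1.94 to 5.57 CPM (1.52 ± 0.23, adjusted p = 0.00618). Leaving out eGFP replicate 1 or 2 reduced that count from 4 to 2, and ACTA2 was lost in both (adjusted p = 0.107 and 0.104) and without ETV4WT replicate 2 (0.0576). By edgeR's test 0 of 14 tested partners and 0 of 22 epithelial genes passed. CLDN4, a claudin gene of tight junctions, was 247 CPM with eGFP and 319 with ETV4WT (0.37 ± 0.29, adjusted p = 0.617). With no low-count filter 2 epithelial genes passed. The PC3 markers summed to 530 to 581 CPM with ETV4WT, against 336 to 394 with eGFP. The 1 of 5 that was higher was CD44, which is also counted among the effectors above. The 3 keratin markers summed to 1472 to 1516 CPM against 885 to 1127 (0 passed). The part of both marker lists in these counts was not tested.

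**Figure D4:**
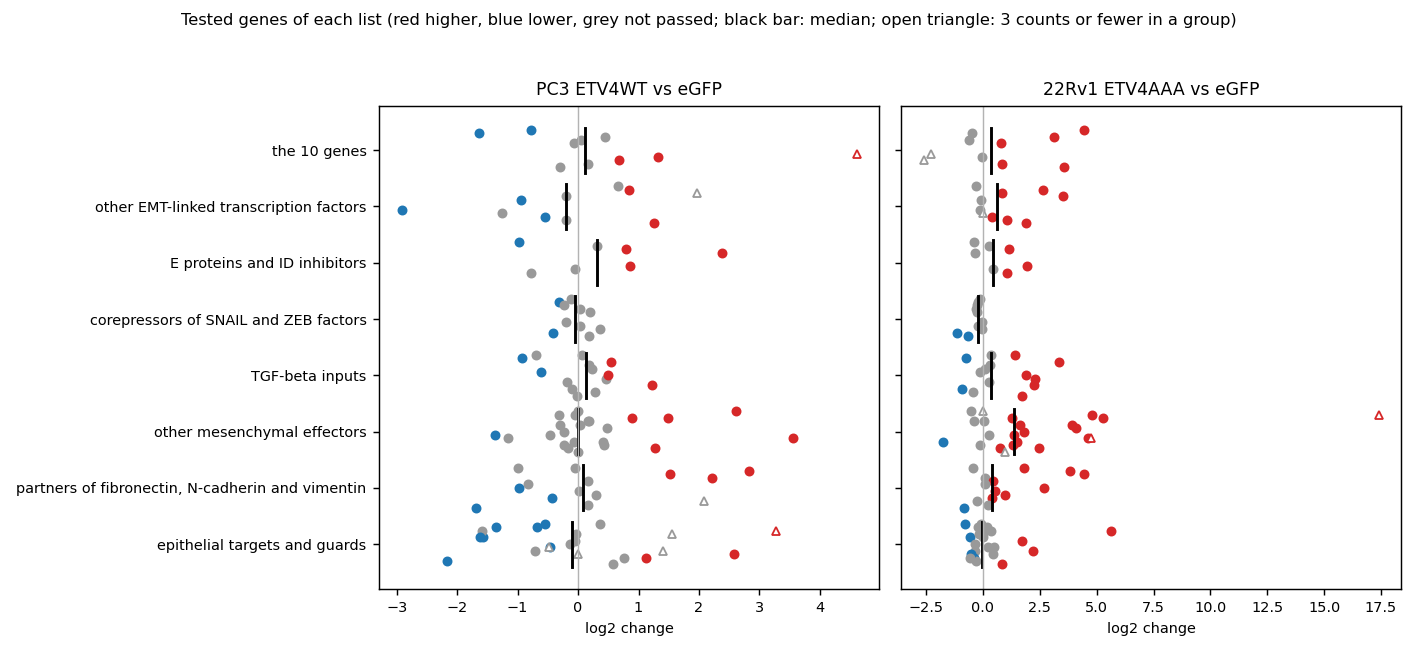
Log2 changes of each tested gene of the 10 and of 7 further lists, for PC3 ETV4WT and 22Rv1 ETV4AAA against eGFP, in red where higher, blue where lower and grey where not passed, with a black bar at each list's median and open triangles where a group held 3 counts or fewer. The mesenchymal effectors in 22Rv1 sit mostly to the right, with a median of 1.35, and the far point at the right edge is SPARC, whose fitted value rests on 1 count.

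In the PC3 libraries labelled ETV4WT, where 12.7% of all genes were higher and 10.7% lower, 2 of 10 other EMT-linked factors rose and 3 fell: FOXC1 rose from 21.7 to 38.7 CPM (log2 0.84 ± 0.16), while the homeobox gene PRRX2 fell (-2.91 ± 0.52). Of 7 E proteins and ID inhibitors 3 rose and 1 fell, with ID4 up from 1.55 to 8.07 CPM (2.38 ± 0.15), TCF4 (0.86 ± 0.13) and ID2 (0.79 ± 0.13). Of 14 TGF-beta inputs 3 rose and 2 fell, among them the receptor gene TGFBR3 (1.22 ± 0.15) and the ligand gene TGFB3 (-0.94 ± 0.15). Of 23 mesenchymal effectors 5 rose and 1 fell, near the 23.4% of all genes that passed. FSTL1, a secreted glycoprotein gene, rose from 584 to 1405 CPM (1.27 ± 0.14) and FBN1 from 2.80 to 7.84 CPM (1.49 ± 0.16), and S100A4 fell (-1.38 ± 0.19). Of 14 partners 3 rose and 3 fell: CTNNA1, which ties cadherins to actin, rose from 6.22 to 28.8 CPM (2.21 ± 0.12), ITGA4 rose (2.83 ± 0.37), and NES, an intermediate filament gene that pairs with vimentin, fell from 803 to 249 CPM (-1.69 ± 0.17). Of 22 epithelial genes 3 rose and 7 fell. The desmosome gene DSP rose from 9.38 to 56.0 CPM (2.58 ± 0.18), and the splicing factor gene ESRP2 (-1.58 ± 0.18) and the ETS factor gene ELF3 (-2.17 ± 0.26) fell. All adjusted p of genes named here were at most 0.00307.

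The counts of 2 corepressors that fell in those libraries, EZH2 and HDAC1, rested on the fit, with 0 or 1 left under most alternatives. Leaving out 1 library lowered the TGF-beta count from 5 to 2 (either eGFP library or ETV4WT replicate 2), the epithelial count from 10 to 5 (eGFP replicate 1) or 6 (eGFP replicate 2), and that of other factors from 5 to 3 (eGFP replicate 1). Keratin markers summed to 628 to 681 CPM with eGFP and 299 to 517 with ETV4WT (0 of 3 higher, 2 lower). Stromal markers summed to 411 to 419 and 348 to 424 (0 of 8 higher, 3 lower). Luminal markers summed to 750 to 788 and 443 to 564, yet 3 of 8 were higher and 1 lower, with a median log2 change of 2.29. Of these 8, 6 were under 1 CPM in both eGFP libraries and 6 in both ETV4WT libraries. The part of these markers in the list counts was not tested.

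In the PC3 libraries labelled ETV4AAA, where 3.69% of all genes passed, 4 of 22 epithelial genes fell and 0 rose, among them CDH1, ELF3 (log2 -1.66 ± 0.25, adjusted p = 0.00333) and the tight junction gene TJP3 (-1.83 ± 0.37, adjusted p = 0.0175). Of 23 mesenchymal effectors 3 rose and 2 fell, with FBN1 (1.50 ± 0.16, adjusted p = 0.000364) and FSTL1 (1.27 ± 0.14, adjusted p = 0.000443) up and SPARC down from 69.5 to 45.7 CPM (-0.60 ± 0.13, adjusted p = 0.0199). TGFBR3 (1.56 ± 0.15, adjusted p = 0.000151), TGFBR2 (0.76 ± 0.16, adjusted p = 0.0183) and ITGB3 (2.26 ± 0.23, adjusted p = 0.000311) rose, and SOX4, a factor upstream of EZH2, fell from 203 to 117 CPM (-0.79 ± 0.12, adjusted p = 0.00321). Leaving out either eGFP library lowered the epithelial count to 2 and the mesenchymal count to 2, and without ETV4AAA replicate 2 they were 2 and 3. TJP3 was lost without eGFP replicate 1 (adjusted p = 0.0935), eGFP replicate 2 (0.118) or ETV4AAA replicate 2 (0.159), and SPARC and TGFBR2 without each of the same libraries (at least 0.104). SPARC was also lost without replicate 2 of both constructs (0.0549), and SOX4 without eGFP replicate 1 (0.0532). In this contrast the endothelial markers summed to 14.1 to 15.3 CPM with eGFP and 23.6 to 26.7 with ETV4AAA (2 of 4 tested higher), and the PC3 markers to 1121 to 1129 and 1395 to 1424 (2 of 5 higher). Of the leukocyte markers 1 of 2 tested was higher, at sums of at most 0.699 CPM. Keratin markers summed to 360 to 651 CPM with ETV4AAA and stromal markers to 350 to 428, with 0 passing. The part of these markers in the counts was not tested.

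Between the PC3 constructs 11.0% of all genes passed, 3.65% higher and 7.32% lower in the libraries labelled ETV4AAA. Of 7 E proteins and ID inhibitors 0 were higher and 2 lower, and of 14 partners 3 and 2. Of 23 mesenchymal effectors 2 were higher and 3 lower, and of 22 epithelial genes 1 and 4. Of 14 TGF-beta inputs 1 was higher and 3 lower, and of 10 other EMT-linked factors 0 and 2. Among the lower genes, as ZEB2 was, were ID4 (log2 -2.64 ± 0.15), CTNNA1 (-1.95 ± 0.12), DSP (-2.25 ± 0.18), ITGA4 (-2.55 ± 0.36) and MMP2, a gelatinase gene (0.634 against 0.0684 CPM, -3.21 ± 0.50). ESRP1, a splicing regulator of epithelial isoforms, was 37.2 and 50.3 CPM with ETV4WT and 12.9 and 13.4 with ETV4AAA (-1.73 ± 0.15, adjusted p = 2.35e-05). NES differed the other way, at 249 against 675 CPM (1.44 ± 0.17). Each gene named here had an adjusted p of at most 0.00145 in edgeR's test.

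For each gene with a mean of at least 1 CPM, the protein-coding genes most like it were sought by Pearson's r of log2(CPM + 0.5) over the 12 libraries, centred on each line's mean. Such r values are descriptions over 6 groups of 2 libraries that share depth and scaling. Nearest to TWIST1 were EML6 and TMTC1 (r = 0.99 for both), and TMTC1 averaged 12.7, 23.0 and 124 CPM in the 22Rv1 groups in the order eGFP, ETV4WT, ETV4AAA. FN1 was nearest to PPP1R1B and SPARC (0.99 for both), VIM to IL6ST and ITGB1 (0.99 for both), and CDH2 to RND3 (0.98) and LRRC8D (0.96). ZEB1 was nearest to MED21 and SNX4 (0.99 for both), and ZEB2 to ESRP1 (0.98) and ZNF16 (0.94). ESRP1, like ZEB2, had its highest PC3 levels with ETV4WT and its lowest with ETV4AAA. SNAI1 was nearest to CHST14 and MAP3K14 (0.98 for both), SNAI2 to SMPDL3A and ATP8A2 (0.97 for both), and PRRX1, the least matched, to ZNF169 (0.85) and THRAP3 (0.84).

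All 10 are protein-coding genes in GENCODE 29 on GRCh38, and reads were counted over whole genes. TWIST1 (ENSG00000122691) lies on chromosome 7 from 19020991 to 19117672, minus strand. TWIST2 (ENSG00000233608) is on chromosome 2, 238848032 to 238910543, plus strand. SNAI1 (ENSG00000124216) lies on chromosome 20 from 49982999 to 49988886, plus strand. SNAI2 (ENSG00000019549) is on chromosome 8, 48917604 to 48921740, minus strand. ZEB1 (ENSG00000148516) lies on chromosome 10 from 31318495 to 31529814, plus strand. ZEB2 (ENSG00000169554) is on chromosome 2, 144364364 to 144524583, minus strand. PRRX1 (ENSG00000116132) lies on chromosome 1 from 170662728 to 170739419, plus strand. VIM (ENSG00000026025) is on chromosome 10, 17228259 to 17237593, plus strand. CDH2 (ENSG00000170558) lies on chromosome 18 from 27950966 to 28177446, minus strand. FN1 (ENSG00000115414) is on chromosome 2, 215360440 to 215436172, minus strand. MIR200CHG (ENSG00000257084) is a long intergenic RNA gene on chromosome 12 from 6963246 to 6964447, plus strand.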

How the data were processed

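Polyadenylated RNA of 12 libraries was counted. The submitters' processing notes name STAR 2.5.3a, FastQC 0.11.9 and the build GRCh38. How reads were assigned to genes, with which annotation and strand setting, is not stated there. The authors deposited unnormalized counts, 1 column per library, for 58302 Ensembl IDs, and 58039 of the IDs were matched to GENCODE 29 for symbols, positions and exon lengths.

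Counts were analysed in R 4.3.3 with edgeR 4.0.16: filterByExpr by group, TMM scaling, 1 mean per group over all 12 libraries and quasi-likelihood tests, with Benjamini-Hochberg adjustment over 23238 genes and a threshold of 0.05. The fit left 6 residual degrees of freedom, at a biological coefficient of variation of 0.149. The fit was tested on simulated data. SE is the size of the log2 change divided by the square root of F. For 3 counts or fewer in a group, ratios of pooled counts carry exact 95% intervals, which hold counting error only.

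Named genes beside the 10 and ETV4 are, per list and comparison, at most 3 that passed, by smallest adjusted p, and at most 1 other, by highest CPM, or are said to be chosen after their values were seen. 1 gene that this rule names is not reported here. The genes, lists and tests were chosen with earlier results of these data known. Alternatives included limma 3.58.1 (voom) and DESeq2 1.42.0.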

Additional observations from a re-analysis of the deposited data

Results flagged for a closer look

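Several of the 10 genes responded differently in the lines by an interaction contrast of edgeR's quasi-likelihood test, with Benjamini-Hochberg adjustment over all genes. For ETV4WT the effect in 22Rv1 minus that in PC3 was log2 2.16 for TWIST1 and 2.24 for FN1, with both genes higher in both ETV4WT libraries of 22Rv1 and lower in both PC3 libraries so labelled. ZEB2 differed by -3.36 ± 0.90, on 8 and 1 counts in 22Rv1. It met the low-count filter through PC3 alone, whose groups enter this contrast. The value is therefore a description, and no test of it is read. The main fit put it past the threshold. Fits without either PC3 eGFP library, PC3 ETV4WT replicate 2, either 22Rv1 eGFP library or 22Rv1 ETV4WT replicate 1 did not. Nor did the DESeq2 Wald test (adjusted p = 0.0895).

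For ETV4AAA the differences were 4.65 for TWIST1, 4.16 for FN1, 2.56 for ZEB1, 0.95 for CDH2 and -1.22 for SNAI2. TWIST1 and FN1 kept theirs past the threshold in each alternative run. ZEB1 was lost without 22Rv1 eGFP replicate 1 (1.93, adjusted p = 0.0908) or 22Rv1 ETV4AAA replicate 2 (2.25, adjusted p = 0.0656). CDH2 was lost without PC3 eGFP replicate 1 (adjusted p = 0.0713) or 2 (0.0642) or 22Rv1 ETV4AAA replicate 1 (0.056), and with upper-quartile scaling (0.0505). SNAI2 was lost without any of 7 single libraries (adjusted p = 0.0595 to 0.136), without replicate 2 of both PC3 constructs (0.0691) and in limma-voom (0.0526). ETV4 in PC3 was above eGFP in replicate 1 of each construct only, and its part in these differences was not tested.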

How the results depend on the processing

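Each value was recomputed with limma-voom, the DESeq2 Wald test, upper-quartile or DESeq2 size factors, a floor of 1 CPM, no filter, a replicate block, only the 6 libraries of a line, each library left out, and replicate 2 of both PC3 constructs left out. Over the 10 genes and 9 comparisons 1104 recomputed values stayed on their side of the threshold, 45 no longer passed, 16 newly passed and 0 passing values reversed. Among values past the threshold in neither fit 45 changed sign. Counts here include TWIST2, which met the filter through its high group, and ZEB2, which met it through PC3 alone. The number of the 10 genes passing for PC3 ETV4AAA against eGFP, 2, became 1 with DESeq2 size factors, 4 with no filter, 1 with only the PC3 libraries and 1 without replicate 2 of both constructs. The ETV4WT interaction count of 3 became 5 with no filter. With single libraries left out, the count ranged over 0 to 3 for PC3 ETV4AAA against eGFP (0 without either eGFP library, 1 without ETV4AAA replicate 2), 3 to 5 for PC3 ETV4WT against eGFP (3 without ETV4WT replicate 2), 2 to 4 for the ETV4WT interaction and 3 to 5 for the ETV4AAA interaction. It stayed within 1.5 times for the other 5 comparisons.

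Over all genes the number passing moved by more than 1.5 times in these cases. For PC3 ETV4AAA against eGFP it was 858, and 2152 with no filter, 466 with the PC3 libraries alone and 213 to 2253 with single libraries left out. For PC3 ETV4WT against eGFP it was 5434, and 2553 without eGFP replicate 2. Between the PC3 constructs it was 2550, and 1657 with the PC3 libraries alone and 1341 without replicate 2 of both. In 22Rv1 it was 348 for ETV4WT, and 904 with no filter and 119 without ETV4WT replicate 1. For ETV4AAA against ETV4WT it was 5455, and 3437 without ETV4AAA replicate 1. The interactions went from 2903 to 4436 with no filter and 1425 without PC3 eGFP replicate 2 (ETV4WT), and from 3766 to 2317 without the same library (ETV4AAA). The cause was not tested. Upper-quartile scaling moved the median of all genes from 0.00 to 0.12 in PC3 with ETV4WT, to 0.32 between the eGFP controls and from 0.02 to -0.16 in the ETV4WT interaction. It moved the split of higher and lower genes from 2958 and 2476 to 3724 and 1661, from 8105 and 8377 to 9917 and 6767, and from 1144 and 1759 to 731 and 2264, and between the PC3 constructs from 848 and 1702 to 414 and 2018.

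The labels give no shared culture or day for a replicate number. Same-numbered deviations correlated at 0.82 between the PC3 constructs. They also correlated across the lines, at 0.65 and 0.63 between PC3 ETV4WT and ETV4AAA and 22Rv1 eGFP. Between the same PC3 groups and 22Rv1 ETV4AAA the value was 0.44 for both, and between 22Rv1 eGFP and ETV4AAA it was 0.50. PC3 eGFP and 22Rv1 ETV4WT each correlated negatively with all of these groups (-0.37 to -0.19) and at 0.10 with each other. Because the sign was not shared by all groups, the number was not taken as a pairing. With a replicate block the counts of passing genes among the 10 were 5, 2 and 3 in PC3 and 2, 5 and 5 in 22Rv1, 9 between the eGFP controls, and 4 and 5 for the interactions, where SNAI1 was added for ETV4WT (log2 1.64, adjusted p = 0.0459). Depth limits TWIST2 and ZEB2 in 22Rv1, with 0 to 8 counts in a group.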
